A study of Homo sapiens with 3 samples.

Results

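The genes described are the transcriptional repressor gene REST, the CoREST genes RCOR1, RCOR2 and RCOR3, the insulinoma-associated zinc finger genes INSM1 and INSM2, the myelin transcription factor genes MYT1, MYT1L and ST18, and the neuronal splicing factor gene SRRM4. They were chosen by name, through the Ensembl identifiers that GENCODE release 29 pairs with these symbols. Earlier results of these data were known when the genes were chosen. All 10 were found, each with a single identifier, among the 60660 genes of the table, of which 19686 are protein-coding in that annotation. RNA came from SH-SY5Y, an adherent human neuroblastoma line, a cloned subline of SK-N-SH of sympathetic, neural crest origin, and the 3 libraries form 1 group with no treatment and no comparison line. Each library was made from a different flask of the same line, so the spread between them is that of parallel cultures of 1 cell line. The values are FPKM (fragments per kilobase of transcript, with library size scaled out), a level set per transcript length, so that genes can be compared within a library.

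REST binds a DNA element called RE1 near neuronal genes and keeps them silent in non-neuronal cells. It recruits the SIN3 corepressor at one end of the protein and CoREST at the other, and CoREST brings the histone demethylase KDM1A and the deacetylases HDAC1 and HDAC2. REST is high in neural stem cells and non-neuronal tissue and is lost as neurons mature, through protein degradation, microRNAs and the splicing factor encoded by SRRM4, which adds a short exon to the REST message and so truncates the protein. The zinc finger genes of the INSM and MYT families encode DNA-binding repressors that act during neuronal and neuroendocrine differentiation.

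The sequences that tie REST to its targets are the RE1 elements. They were searched for as 2 blocks of letters, CAGCACC and GGACAG, with 2 free bases between them, on both strands, in the window from 250 bases before to 50 bases after each RefSeq gene start (GRCh38.p14) and in the GENCODE 29 transcripts. The 3 textbook RE1 target genes with a match in the start window are shown first, and then 4 with a match in a 5′ untranslated exon; the capitals mark the blocks searched for. The SYN1 match lies at chrX:47620074-47620088 on the minus strand, that of GRIA2 at chr4:157220392-157220406 on the minus strand, opposite to the gene, and that of DRD3 at chr3:114178966-114178980 on the minus strand. In the transcripts, that of CHRNB2 lies at chr1:154567956-154567970 (plus), GRIN1 at chr9:137139262-137139276 (plus), SYT4 at chr18:43277297-43277311 (minus) and BDNF at chr11:27720680-27720694 (minus). Coordinates are GRCh38 and span the blocks and the bases between them, and the letters run 5′ to 3′ on the strand of the match.
SYN1: ttCAGCACCgcGGACAGtgcc
GRIA2: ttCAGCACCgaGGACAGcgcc
DRD3: ttCAGCACCaaGGACAGaacc
CHRNB2: ttCAGCACCacGGACAGcgcc
GRIN1: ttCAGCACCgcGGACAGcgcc
SYT4: ttCAGCACCtcGGACAGaaca
BDNF: ttCAGCACCttGGACAGagcc

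CALB1 (3.461 FPKM, called above 1 FPKM) and NPPA (0.727 FPKM, called neither) also held a match in a transcript, and their letters are not shown. The 7 genes shown are not alike in level. SYT4, CHRNB2, GRIN1, GRIA2 and SYN1 were called above 1 FPKM, BDNF was called below, and DRD3 was listed at 0. The pattern was rare, found in 18 of 35116 start windows (0.0513%) and in transcripts of 111 of 57133 genes (0.194%). Of the 10 genes described, 7 had a start window in the RefSeq table and 0 held a match in it, and 0 held a match in their transcripts. Of 40 textbook targets 29 had a start window, 3 of which held a match, and 9 held a match in the window or a transcript. A match describes letters and is not a binding site.

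REST and its corepressor are also known targets of miR-9, a microRNA of the nervous system whose arms match REST and RCOR1 messages. The mature arms from RefSeq (GRCh38.p14) are shown with the seed, bases 2 to 8, in capitals, followed by the seed matches that a search of the longest coding transcript found in the 3′ untranslated regions of REST and RCOR1, with the matching letters in capitals. The REST match, to the 5p arm, lies at chr4:56935602-56935608, and the RCOR1 matches, to the 3p arm, at chr14:102728480-102728486 and chr14:102728940-102728946, all on the plus strand of GRCh38. These coordinates span the letters in capitals.
hsa-miR-9-5p: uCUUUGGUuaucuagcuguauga
hsa-miR-9-3p: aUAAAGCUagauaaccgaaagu
REST site: ctgaggcaaACCAAAGgtaaat
RCOR1 site 1: atgagctgaAGCTTTAggttct
RCOR1 site 2: aaatcacttAGCTTTAaaagcg

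Besides REST, the 5p heptamer ACCAAAG occurred once each in RCOR3 and SRRM4, and the 3p heptamer AGCTTTA once each in INSM1 and INSM2 besides the pair in RCOR1. RCOR2, MYT1, MYT1L and ST18 held neither. Of 18894 genes with a 3′ untranslated region, 12.7% held the 5p heptamer and 13.4% the 3p heptamer. These shares are not matched for length. Among the genes described, the regions searched ran from 647 bases in RCOR2 to 6256 in SRRM4, with 3695 in REST and 4073 in RCOR1. The microRNA itself was not measured. Of the genes that host its 3 loci, C1orf61 stood at 3.549, 3.895 and 6.224 FPKM in replicates 1, 2 and 3 and MIR9-3HG at 2.78, 3.158 and 3.3 FPKM, both called above 1 FPKM, while LINC00461 was called below at 0.102, 0.067 and 0.119 FPKM.

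Deposited values carry no counts, but low values moved in even steps that correspond to about 21600000, 28500000 and 43500000 reads in replicates 1, 2 and 3. A count of 3 reads on a transcript of 1 kb effective length would then be 0.139, 0.105 and 0.069 FPKM, a floor for counting error only. The labelled cell type was checked against its markers. Of 8 sympathoadrenal markers 7 were called above 1 FPKM and TH was called neither, with summed levels of 1951 to 2004 FPKM, while summed levels were 29.29 to 44.11 FPKM for 8 mesenchymal and fibroblast markers (4 above), 5.025 to 9.44 FPKM for 5 Schwann cell and glial markers (1 above) and 1.702 to 3.091 FPKM for 5 immune and epithelial markers (0 above). The mesenchymal and fibroblast markers called above were DCN (14.66 FPKM, above REST), FN1 (10.63 FPKM), LUM (3.951 FPKM) and COL1A1 (3.785 FPKM), and the glial one was GFAP (3.617 FPKM), whose call was lost without replicate 2 (limma adjusted p = 0.0831). GFAP shares 2230 exonic bases with CCDC103 on the other strand (1.35 FPKM). The sympathoadrenal marker HAND2 shares 867 with HAND2-AS1 (427.1 FPKM), and both values are uncertain to that extent. The mesenchymal regulator PRRX1 was listed at 0, and YAP1 (0.035 FPKM), the glial regulator SOX10 (0.0113 FPKM) and the leukocyte gene PTPRC (0.073 FPKM) lay near it. Called neither were the glial markers ERBB3 (1.704 FPKM) and S100B (1.167 FPKM), the epithelial marker EPCAM (1.613 FPKM), and COL1A2 (0.9207 FPKM) and COL3A1 (0.919 FPKM). TH, at 1.118 FPKM, lay below GFAP, ERBB3, S100B and EPCAM, so not every marker separates the cell types. The summed mesenchymal and glial levels were highest in replicate 1. What these other markers contribute to the levels below was not tested.

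Of the 10 genes, 8 were called above 1 FPKM and ST18 and INSM1 were called below, by limma's moderated test with Benjamini-Hochberg adjustment over 31736 genes. Over all genes tested, 45.5% were called above and 43.7% below, and over 16750 protein-coding genes tested 70.6% were above and 24.6% below. The share of 8 in 10 is thus near that of protein-coding genes at large. The 8 stayed above at a level of 5 FPKM, where 56.6% of protein-coding genes did. The median of the 10 genes, 12.22 FPKM, stands beside 9.13 FPKM for protein-coding genes tested and 1.083 FPKM for all genes tested.

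**Figure D1:**
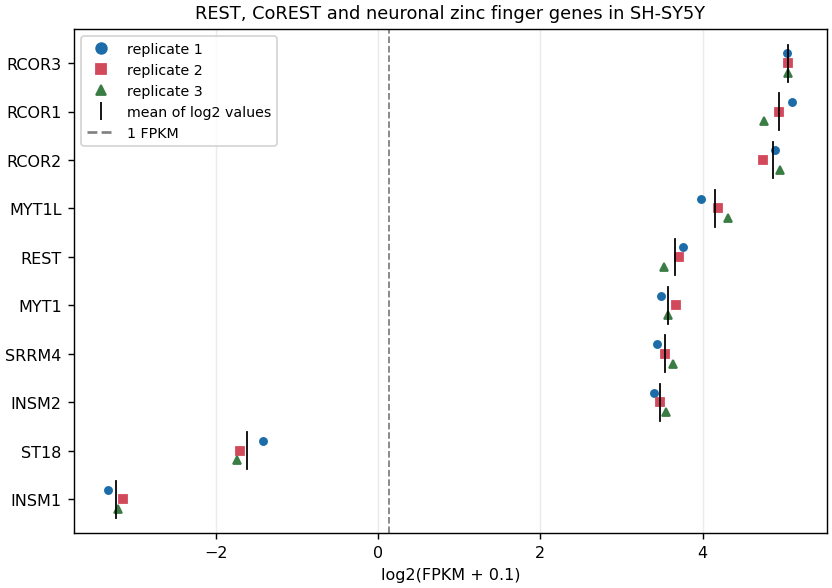
Levels of the 10 genes as log2(FPKM + 0.1) on the horizontal axis, with genes ordered by mean level down the page; points are the 3 libraries, vertical bars the mean of log2 values and the dashed line 1 FPKM. The 3 CoREST genes lie together at the top, 5 genes lie between 10.463 and 19.733 FPKM, and ST18 and INSM1 lie below the line in all 3 libraries.

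The levels fell into steps. RCOR3, RCOR1 and RCOR2 were highest and each overlapped the next, MYT1L came next and overlapped neither neighbour, and REST, MYT1, SRRM4 and INSM2 followed in a run in which each overlapped the next. ST18 lay apart beneath them and INSM1 apart again. Among protein-coding genes of the table, the CoREST genes stood at percentiles 79.0 to 81.1, MYT1L at 69.6, REST at 62.9, MYT1 at 61.8, SRRM4 at 61.3, INSM2 at 60.5, ST18 at 30.7 and INSM1 at 16.8.

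**Figure D2:**
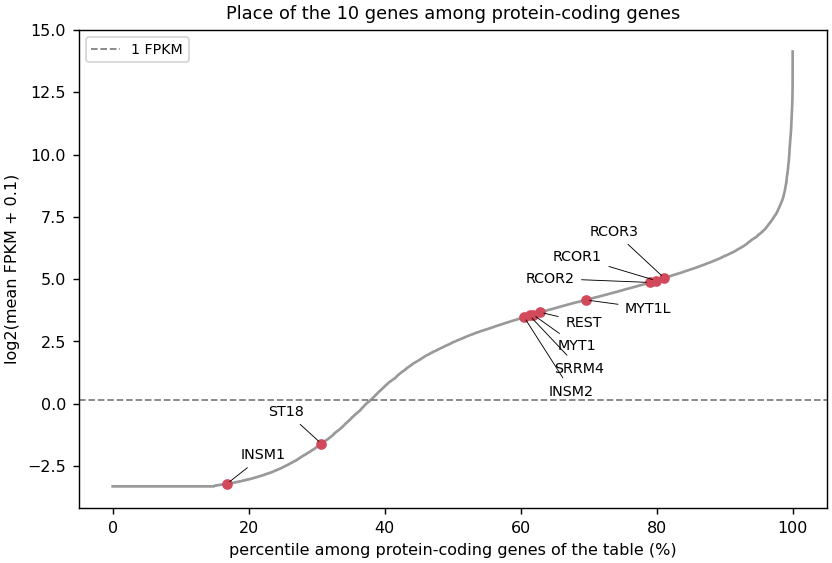
Mean level, as log2(mean FPKM + 0.1) on the vertical axis, against percentile among protein-coding genes on the horizontal axis; the grey line holds all protein-coding genes, red points the 10 genes and the dashed line 1 FPKM. Of the 10 genes, 8 stand between percentiles 60.5 and 81.1, on the part of the curve above the line, and ST18 and INSM1 stand at 30.7 and 16.8.

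REST (ENSG00000084093, chr4:56907876-56966678, plus strand) was expressed at a moderate level in SH-SY5Y cells. Its values were 13.438, 12.928 and 11.434 FPKM in replicates 1, 2 and 3, a mean of 12.6 ± 1.04 FPKM (SD, n = 3). All 3 libraries lay well above 1 FPKM, with the lowest value in replicate 3. The log2 level over 1 FPKM was 3.53 (SE 0.0845, limma adjusted p = 5.52e-05). Gene-level values do not separate the full-length message from the truncated neuronal form. REST shares 23 exonic bases with NOA1, a gene of the opposite strand with a mean of 12.16 FPKM.

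Among the 164 list genes set beside REST, those nearest in level over the 3 libraries were GRIA2, an AMPA receptor subunit gene (distance 0.154 in log2 units), SYN1, a synaptic vesicle gene (0.209), and RBX1, a ubiquitin ligase subunit gene (0.215). GRIA2 had 14.897, 12.6 and 11.635 FPKM in replicates 1, 2 and 3, and SYN1 12.01, 12.534 and 12.492 FPKM. Both overlap the range of REST, and SYN1 shares 23 exonic bases with ARAF on the opposite strand (13.1 FPKM). GRIA2 and SYN1 are also 2 of the 3 textbook targets with the RE1 letters in the start window, shown above, while the other, DRD3, was listed at 0. The nearness is one of level over 3 libraries only, and a relation to the letters was not tested.

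The 3 CoREST genes encode alternative scaffolds that hold KDM1A to the deacetylases; RCOR1 is the original partner of REST, RCOR2 is known from stem cells and neural progenitors of the mouse, and RCOR3 has been described as an antagonist of KDM1A activity in mouse blood progenitors. RCOR1 (chr14:102592661-102730576, plus strand) had 34.317, 30.535 and 26.948 FPKM in replicates 1, 2 and 3, a mean of 30.6 ± 3.68 FPKM (SD, n = 3). RCOR2 (chr11:63911221-63916844, minus strand) had 29.591, 26.583 and 30.952 FPKM, a mean of 29.04 ± 2.24 FPKM. RCOR3 (chr1:211258377-211316385, plus strand) had 32.738, 32.902 and 33.07 FPKM, a mean of 32.9 ± 0.166 FPKM.

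The paralogs were present at nearly equal levels, with RCOR1 highest of the 3 genes in replicate 1 and lowest in replicate 3. RCOR1 minus RCOR2 was 0.07 ± 0.23 on the log2 scale and RCOR1 minus RCOR3 was -0.11 ± 0.18, differences smaller than their spread. RCOR2 lay below RCOR3 in 3 of 3 libraries, by a log2 difference of -0.18 ± 0.11. RCOR1 held 29.6% to 35.5% of the summed CoREST level, RCOR2 29.5% to 34.0% and RCOR3 33.9% to 36.5%. Each was called above 1 FPKM by limma, at adjusted p between 2.99e-05 and 4.48e-05.

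REST itself was lower than its scaffold. REST minus RCOR1 was -1.27 ± 0.07 on the log2 scale, with 1 sign in 3 of 3 libraries, and the ranges did not overlap. The summed CoREST level was 96.65, 90.02 and 90.97 FPKM in replicates 1, 2 and 3, which was 7.37 ± 0.52 times that of REST. The same sum was 0.483 ± 0.0393 times the level of KDM1A and 0.352 ± 0.00638 times that of HDAC2.

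The corepressor partners of REST and CoREST were all expressed. All 26 listed genes were called above 1 FPKM, with a median of 43.56 FPKM, against 70.6% of protein-coding genes tested. This list and those below were drawn up with earlier results of these data known, so their counts are descriptions and not tests. The highest were HDAC2 at 262.8 ± 8.94 FPKM, KDM1A at 192.5 ± 16.5 FPKM and RBBP7, a histone-binding subunit of the deacetylase complexes, at 192.2 ± 18.3 FPKM (SD, n = 3 each). The lowest was ZNF217, which encodes a zinc finger protein that binds CoREST complexes, at 6.988 ± 0.707 FPKM.

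HDAC2 far exceeded its paralog HDAC1, which stood at 26.19 ± 2.92 FPKM, and held 90.9% ± 1.01 of their sum. KDM1A exceeded both REST and RCOR1, with log2 differences of -3.92 ± 0.22 for REST minus KDM1A and -2.65 ± 0.25 for RCOR1 minus KDM1A, in 3 of 3 libraries. The SIN3 scaffold genes that serve the other end of REST stood at 35.94 ± 1.89 FPKM for SIN3A and 16.29 ± 0.551 FPKM for SIN3B. PHF21A, whose protein reads unmethylated histone H3 in the CoREST complex, stood at 67.23 ± 4.7 FPKM. Among the partners, HMG20B, CTBP2 and RBBP4 share 369 to 3416 exonic bases each with a gene on the other strand at 41.3, 15.2 and 12.6 FPKM, and their values are uncertain to that extent, since whether reads were counted by strand is not stated in the sources used here.

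**Figure D3:**
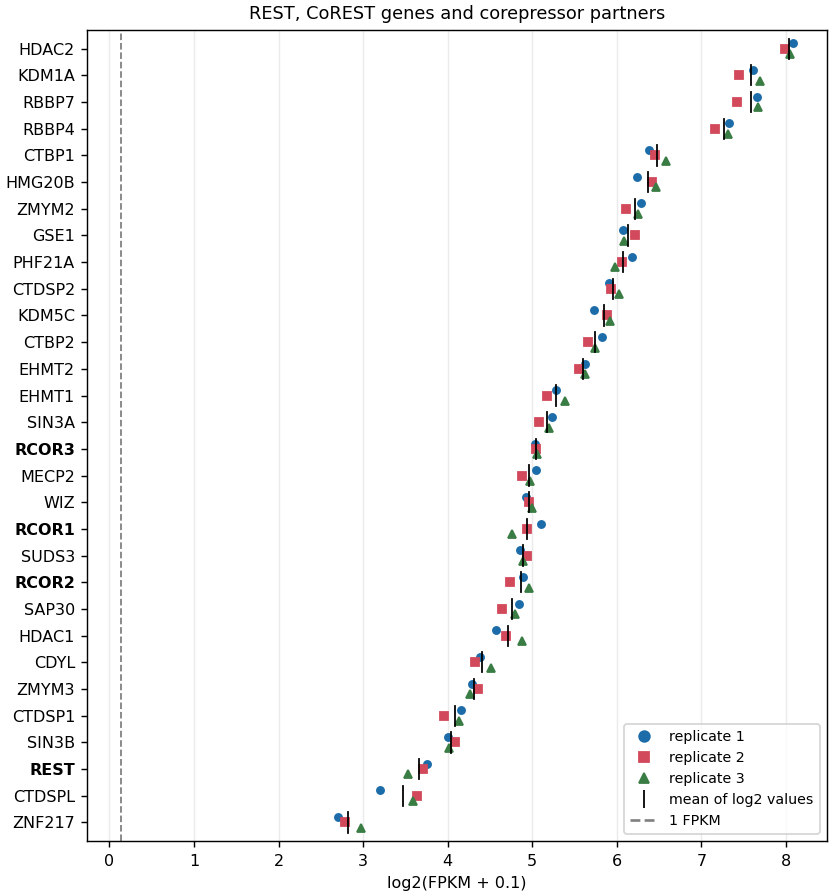
Levels of REST, the CoREST genes (bold) and 26 corepressor partners as log2(FPKM + 0.1), ordered by mean level down the page; points are the 3 libraries, vertical bars the mean of log2 values and the dashed line 1 FPKM. HDAC2 and KDM1A lie at the top at 262.8 and 192.5 FPKM, the CoREST genes in the middle at 29.04 to 32.9 FPKM and REST near the bottom at 12.6 FPKM, and all lie above 1 FPKM.

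Genes that control the stability of the REST protein were expressed as well. All 11 listed genes were called above 1 FPKM, with a median of 56.95 FPKM, against 70.6% of protein-coding genes tested. SKP1, a subunit of the ubiquitin ligase that degrades REST, was highest at 295.1 ± 11.4 FPKM, followed by USP7, a deubiquitinase that protects REST, at 154 ± 6.78 FPKM and the casein kinase gene CSNK1D at 94.96 ± 1.71 FPKM. BTRC, which encodes the subunit that recognises phosphorylated REST, was among the lowest at 12.37 ± 0.837 FPKM, with RBX1 lowest at 11.88 ± 0.115 FPKM. Protein abundance was not measured.

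Textbook RE1 target genes were mostly expressed in the same libraries as REST. Of 40 listed, 30 were called above 1 FPKM, 7 below and NPPA neither, and CRH and DRD3 were listed at 0, with a median of 21.2 FPKM over the list. The 30 above are among 38 targets tested, and stand beside 70.6% of protein-coding genes tested that were above. The count alone does not set the targets apart. The highest were the growth cone gene STMN2 at 2405 ± 71.9 FPKM, the secretory granule gene CHGA at 376.2 ± 14 FPKM and the neuronal tubulin gene TUBB3 at 307.9 ± 35.4 FPKM (SD, n = 3 each). The sodium channel gene SCN2A, in which RE1 was first studied in the rat together with STMN2, stood lower, at 5.809, 6.152 and 6.076 FPKM in replicates 1, 2 and 3. It too was called above 1 FPKM (limma adjusted p = 7.17e-05).

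The targets called below were CHRM4, CHAT, BDNF, GRIN2A, GLRA1, HCN4 and NPAS4, which encode acetylcholine, glutamate and glycine signalling proteins, a neurotrophin, a pacemaker channel and an activity-regulated transcription factor. BDNF had 0.108, 0.098 and 0.136 FPKM in replicates 1, 2 and 3. CHAT had 0.169, 0.567 and 0.209 FPKM, and its call below (limma adjusted p = 0.0179) was lost without replicate 1 (0.067) and without replicate 3 (0.0788). The call of CHRM4 below (0.028) was likewise lost without replicate 2 (0.126) and without replicate 3 (0.115).

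UNC13A, a vesicle priming gene, had 15.31 and 23.293 FPKM in replicates 1 and 2 and no value in replicate 3, so its call above rests on those libraries. CHRNB2 shares 321 exonic bases with AL592078.1, a gene of the opposite strand whose mean of 37.5 FPKM is above that of CHRNB2 itself, at 20.71 ± 1.54 FPKM. MAPK8IP1 and NPPA also have partners on the other strand, at 27.9 and 10.2 FPKM, and BDNF has BDNF-AS at 1.25 FPKM. These values are uncertain to that extent.

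**Figure D4:**
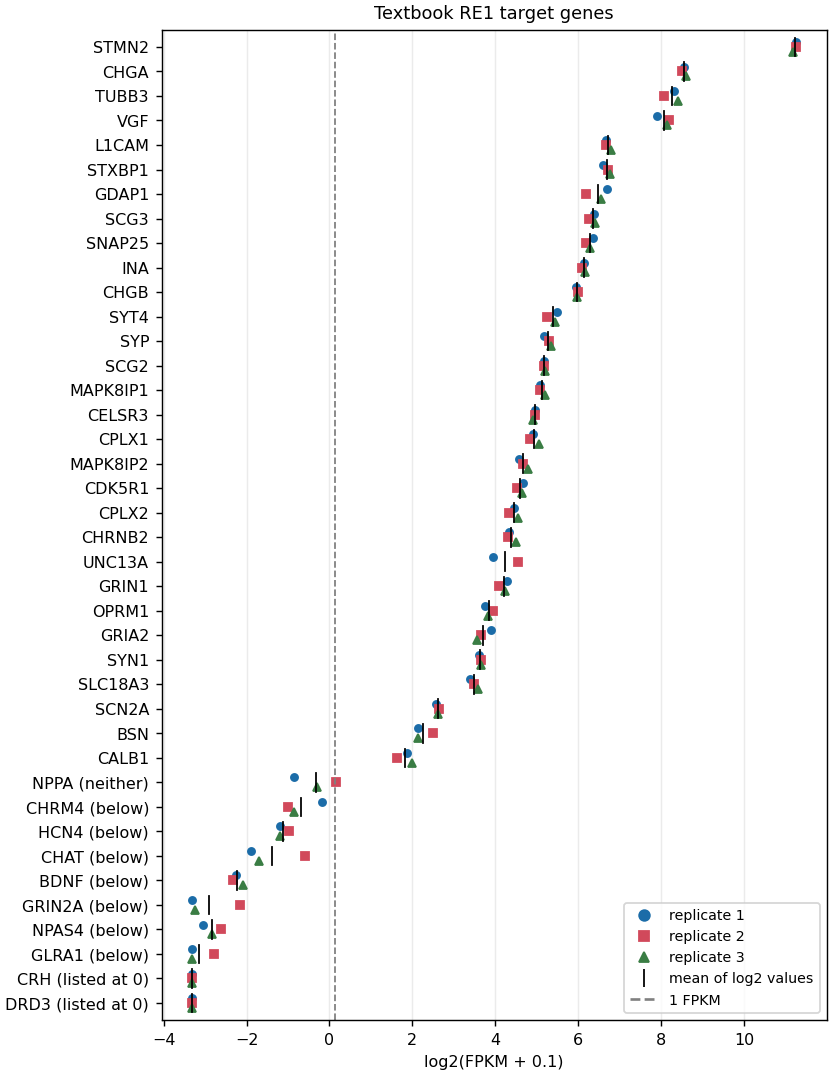
Levels of 40 textbook RE1 target genes as log2(FPKM + 0.1), ordered by mean level down the page; points are the 3 libraries, vertical bars the mean of log2 values and the dashed line 1 FPKM, with genes not called above 1 FPKM marked in their labels. STMN2 stands at the top at 2405 FPKM, 30 genes are called above the line, and CRH and DRD3 are listed at 0.

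Over the whole table, the median level was lower with the RE1 letters than without in every search but the last described here. Protein-coding genes with a match in the start window (14) had a median of 4.972 FPKM with 57.1% called above 1 FPKM, and those without one (14816) had a median of 7.107 FPKM with 63.6% above. With matches taken from transcripts, 87 genes with a match had a median of 4.489 FPKM and 57.5% above, against 5.43 FPKM and 60.2% among 19564 without. With the longer blocks TTCAGCACC and GGACAGCGC in the start window, 2 genes with a match had a median of 6.529 FPKM, against 7.107 FPKM without. The order turned over with the longer blocks in transcripts, a search added after seeing the data. There, 5 genes with a match had a median of 18.381 FPKM with 4 called above, against 5.424 FPKM and 60.1% above without. These are descriptions of few genes, with no test.

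INSM1 and INSM2 encode related zinc finger repressors. INSM1 binds KDM1A and CoREST in mouse endocrine cells and marks neuroendocrine tumours, and less is known of INSM2. INSM1 (chr20:20368121-20370949, plus strand) had 0, 0.013 and 0.009 FPKM in replicates 1, 2 and 3, which corresponds to an estimated 0, 1 and 1 reads, under the floor of 3 reads at 0.0528, 0.0400 and 0.0262 FPKM. INSM2 (chr14:35534042-35537054, plus strand) had 10.463, 10.982 and 11.623 FPKM, a mean of 11.02 ± 0.581 FPKM (SD, n = 3), or an estimated 635.7, 880.4 and 1422.3 reads.

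The pair thus lay far apart: INSM1 was at or near 0 in every library and INSM2 was well measured in each. Both are annotated with a single transcript, of 2829 bases for INSM1 and 3013 bases for INSM2, so their lengths do not separate them, and GENCODE 29 names no pseudogene for either. INSM1 minus INSM2 was -6.70 ± 0.07 on the log2(FPKM + 0.1) scale in 3 of 3 libraries, a size set by the pseudocount, since INSM1 lay under the floor. INSM1 was called below 1 FPKM (limma adjusted p = 5.02e-05) and INSM2 above (4.71e-05).

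MYT1, MYT1L and ST18 encode the 3 proteins of a small family with CCHC-type zinc fingers; MYT1L represses non-neuronal genes and helps turn mouse fibroblasts into neurons together with other factors, among them that of Pou3f2. MYT1L (chr2:1789113-2331664, minus strand) had 15.624, 18.077 and 19.733 FPKM in replicates 1, 2 and 3, a mean of 17.81 ± 2.07 FPKM (SD, n = 3). MYT1 (chr20:64102394-64242253, plus strand) had 11.132, 12.605 and 11.759 FPKM, a mean of 11.83 ± 0.739 FPKM. ST18 (chr8:52110839-52460959, minus strand) had 0.275, 0.208 and 0.199 FPKM, a mean of 0.2273 ± 0.0415 FPKM.

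MYT1L was highest of the family in each library and ST18 far below both. MYT1 minus MYT1L was -0.58 ± 0.14 on the log2 scale, MYT1 minus ST18 5.19 ± 0.25 and MYT1L minus ST18 5.77 ± 0.34, each with 1 sign in 3 of 3 libraries. MYT1L held 57.8% to 62.3% of the summed family level, MYT1 37.1% to 41.2% and ST18 0.6% to 1.0%. ST18 nonetheless lay above the 3-read floor of its longest transcript (0.0232, 0.0176 and 0.0115 FPKM), so it was detected at a level under 1 FPKM (log2 -1.76, SE 0.103, limma adjusted p = 0.0005). MYT1L shares 1335 exonic bases with MYT1L-AS1, a gene of the opposite strand with a mean of 0.333 FPKM, far below MYT1L.

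The proneural and neuroendocrine factors set beside these families were divided. Of 19 listed, 7 were called above 1 FPKM, 7 below and 5 were listed at 0, with a median of 0.1577 FPKM over the list. The 7 above are among 14 tested, where 70.6% of protein-coding genes tested were above. The LIM homeodomain gene ISL1 (102.6 ± 2.5 FPKM) and the SOX genes SOX4 (90.95 ± 2.54 FPKM) and SOX11 (41.61 ± 1.43 FPKM) were highest. POU3F2, a POU domain factor gene of neural precursors, had 5.032, 4.558 and 4.5 FPKM in replicates 1, 2 and 3. PROX1, HES6 and NEUROD1 (1.738 ± 0.249 FPKM) were the others above, and NEUROD1 lost its call after rescaling to TPM (limma adjusted p = 0.0828).

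The neurogenin genes NEUROG2 and NEUROG3, NEUROD2, the INSM1-like repressor genes GFI1 and GFI1B, HES1 and SOX2 were called below, and NEUROD4, NEUROD6, NEUROG1, ATOH1 and NKX2-2 were listed at 0. The call of NEUROG2 (limma adjusted p = 0.0111) was lost without replicate 1 (0.0516). INSM1 thus stood with the low part of this list and INSM2, MYT1 and MYT1L with the part above 1 FPKM.

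SRRM4 (chr12:118981495-119163051, plus strand) had 10.716, 11.478 and 12.353 FPKM in replicates 1, 2 and 3, a mean of 11.52 ± 0.819 FPKM (SD, n = 3). It was called above 1 FPKM (log2 3.40, SE 0.0792, limma adjusted p = 5.24e-05). Its level and that of REST overlapped, with REST minus SRRM4 at 0.13 ± 0.22 on the log2 scale. REST was the higher in replicates 1 and 2 and SRRM4 in replicate 3. The paralog SRRM3, which also promotes neuronal microexons, had 18.011, 25.808 and 20.256 FPKM, and SRRM4 minus SRRM3 was -0.87 ± 0.25 in 3 of 3 libraries.

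Splicing regulators set beside SRRM4 were mostly expressed, 16 of 18 above 1 FPKM, with a median of 41.52 FPKM, against 70.6% above among protein-coding genes tested. PTBP1, a repressor of neuronal exons that is turned down as neurons mature, was highest at 355 ± 20.4 FPKM, followed by the neuronal RNA-binding protein gene ELAVL4 at 274.7 ± 14.4 FPKM and RNPS1, which encodes a partner of SRRM4 on microexons in mouse cells, at 237.9 ± 8.18 FPKM. PTBP2, the neural paralog of PTBP1, stood at 15.58 ± 2.05 FPKM, and PTBP1 minus PTBP2 was 4.51 ± 0.15 on the log2 scale, a ratio of means of 22.8, in 3 of 3 libraries. SRSF11, another such partner of SRRM4, stood at 151.9 ± 14.9 FPKM.

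The genes called below in this list were RBFOX1 and RBFOX3, splicing factors of mature neurons, of which RBFOX3 encodes the antigen NeuN. RBFOX3 had 0.205, 0.221 and 0.298 FPKM in replicates 1, 2 and 3. RBFOX1 had 0.612, 0.011 and 0.089 FPKM, and its call (limma adjusted p = 0.0409) was lost without replicate 2 (0.157) and without replicate 3 (0.143). The third member RBFOX2 stood at 117.4 ± 2.48 FPKM.

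Genes known to carry neuronal microexons were themselves expressed, 17 of 18 above 1 FPKM with a median of 26.59 FPKM, against 70.6% above among protein-coding genes tested. EIF4G1, a translation initiation factor gene, was highest at 212.9 ± 16.1 FPKM, followed by the microtubule-associated genes DCTN1 at 130.0 ± 19.4 FPKM and CLASP2 at 102.7 ± 2.81 FPKM. PPFIA2, a synaptic scaffold gene, was called below, with 0, 0.269 and 0.037 FPKM in replicates 1, 2 and 3. Inclusion of the microexons cannot be read from gene-level values.

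**Figure D5:**
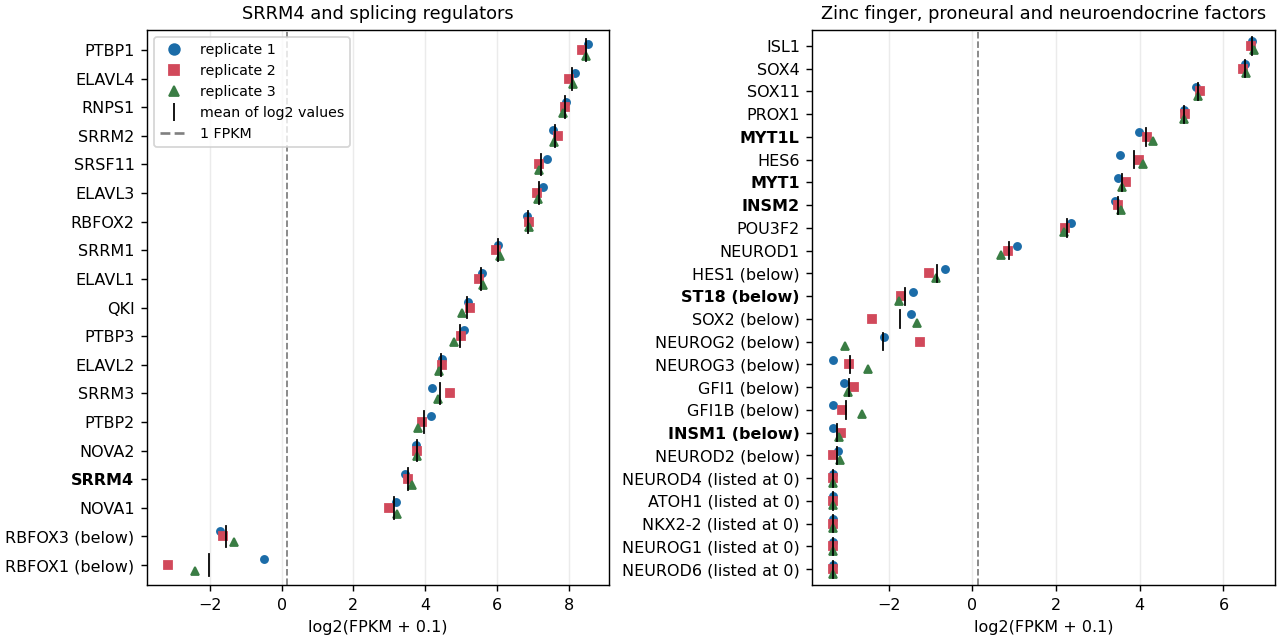
Levels as log2(FPKM + 0.1) of SRRM4 with 18 splicing regulators (left) and of the INSM and MYT family genes with 19 proneural and neuroendocrine factors (right), ordered by mean level down the page; the genes described are bold, points are the 3 libraries, vertical bars the mean of log2 values and the dashed line 1 FPKM. SRRM4 stands near the lower end of the regulators above the line, at 11.52 FPKM, and in the right panel INSM2, MYT1 and MYT1L lie above the line and ST18 and INSM1 below it.

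In all, 13 gene pairs were compared within libraries. An exact sign-flip test (two-sided, over the 3 libraries) cannot fall below 0.25, so none could pass a threshold of 0.05. A single sign in every library and ranges that did not overlap were found in 10 pairs (exact p = 0.25, 0.325 after Benjamini-Hochberg adjustment over the 13), and RCOR1 against RCOR2, RCOR1 against RCOR3 and REST against SRRM4 gave exact p = 0.5.

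The spread between libraries was within that of most protein-coding genes at these levels. The 8 with a mean of at least 10 FPKM had coefficients of variation from 0.5% for RCOR3 to 12.0% for RCOR1, with a median of 7.4%, beside a median of 6.3% and a 90th percentile of 13.8% over 8086 protein-coding genes at that level. REST and RCOR1 were both highest in replicate 1 and lowest in replicate 3, while MYT1L, SRRM4 and INSM2 were highest there. Replicate 1 also had the highest summed levels of mesenchymal and fibroblast markers (44.11 FPKM, against 29.29 and 31.3 FPKM in replicates 2 and 3) and of glial markers (9.44 FPKM, against 5.712 and 5.025 FPKM). Replicate 3 was the deepest library. The part of these markers and of depth in the differences was not tested.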

How the data were processed

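Stranded mRNA libraries of 3 SH-SY5Y flasks were made from 500 ng of total RNA at about 60% confluency and read as single reads of 50 bases, per the labels' protocols. The table deposited by the authors holds 1 FPKM value per gene and library. Cufflinks 2.2.1, TopHat2 2.1.1, FastQC 0.10.1, bcl2fastq and the assembly hg38 are named in the submitters' processing notes; their settings are not stated in the sources used here. Identifiers were paired with GENCODE 29 names (57046 of 60660 matched), and 28 genes lacked a value in at least 1 library.

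Genes not listed at 0 throughout, with values in at least 2 libraries, were tested with limma 3.58.1 in R 4.3.3, as log2(FPKM + 0.1) against 1 FPKM, two-sided, at an adjusted p of 0.05. The pseudocount understates differences of low genes. Depth was read from the even steps between low FPKM values, assuming fragments of 200 bases. Of 3245, 3235 and 3208 low values, 96.8%, 97.0% and 96.3% lay within 0.1 of a whole read, where uniform values at a fixed depth would give 20%. The depths were fitted to these same values, so the shares describe the fit and are no independent check. FPKM are not counts, and no count model was used. Other steps used Python 3.11.15, numpy 2.4.6, pandas 2.3.3 and matplotlib 3.10.9. The level test was tested on simulated data. Since the labels name flasks of 1 line, p-values measure the spread between these flasks only.

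The genes described, the lists and the pairs were chosen with earlier results of these data known. Named genes are those described, those of the pairs, the lowest and the 3 highest genes of each list, members of counts of 5 or fewer, the 3 list genes nearest REST, and genes with RE1 letters that are targets or the 3 highest. Others, and the miR-9 search, were chosen after their values were seen. Protein sequences were not used here, and some genes of the lists are not reported here. Alternatives were other pseudocounts, filters, levels and scalings, summed identifiers, each library left out, and other RE1 searches.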

Additional observations from a re-analysis of the deposited data

How the results depend on the processing

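The calls of the 10 genes were the same in all 119 combinations of gene and alternative that gave a value; with a mean of at least 0.1 FPKM required, INSM1 was not tested and 1 gene was below instead of 2. That filter left 4 RE1 targets below instead of 7 and 3 proneural factors instead of 7, and with no filter, where genes listed at 0 are tested too, 12 were below. Splicing regulators below numbered 1 instead of 2 with a pseudocount of 0.01, with no filter, at a level of 0.5 FPKM and without replicates 2 or 3 (range 1 to 2 over libraries left out), as RBFOX1 lost its call. At 5 FPKM, 2 microexon host genes were below instead of 1. The median of genes with RE1 letters in the start window was 4.972 FPKM, and 6.529 FPKM with longer blocks (2 genes). Genes without a match had 7.107 FPKM in both searches. In transcripts, the original blocks gave 4.489 FPKM, against 5.43 FPKM without a match. Longer blocks in transcripts, chosen after seeing the data, gave 18.381 FPKM (5 genes), against 5.424 FPKM without. Only there did the order of genes with and without the letters turn over. A wider window was not run, since no genome sequence was used.

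Of 1881 combinations of list gene and alternative, 1838 kept their call, where neither in both settings counts as kept whatever the sign. A call was lost in 18 and gained in 10, and 15 changed sign with a call before or after. By construction most of these came from the level of 5 FPKM (log2 over that level): BSN -0.09, CALB1 -0.53, MEF2C -1.01, SHANK3 -0.12, NEUROD1 -1.48, POU3F2 -0.09, TH -2.07, COL1A1 -0.40, LUM -0.34, S100B -2.01, ERBB3 -1.55, GFAP -0.58 and EPCAM -1.64. CHRM4 stood at 0.06 over 0.5 FPKM, and TH at -0.30 after rescaling to TPM, which lowers all genes of a library alike (log2 shifts of -0.47, -0.54 and -0.46 in replicates 1, 2 and 3). Genes under about 0.1 FPKM rest on few reads. No paired analysis was possible because the series holds 1 group.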

Other observations

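Outside the textbook targets, the genes with RE1 letters in the start window and the highest levels were TTC9B (34.324, 42.08 and 40.593 FPKM in replicates 1, 2 and 3), RPH3A (36.437, 39.142 and 39.711 FPKM) and FAM163B (33.005, 33.361 and 33.746 FPKM). RPH3A encodes rabphilin, a vesicle protein of neurons. All 3 lay above REST in every library. At the other end, GAD2, which encodes an enzyme of GABA synthesis, was listed at 0, and the homeobox genes LHX3 (0.0143 FPKM) and BSX (0.171 FPKM) were low. The RE1 letters were thus found next to genes called above 1 FPKM and next to genes called below it or listed at 0. None of these genes lay at the top of the range, where STMN2 stood at 2405 FPKM.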
